A study of Pyrus pyrifolia with 6 samples.

Results

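The genes described here are 7 putative MYB homologs that belong to a list of 12 homologs of MYB regulators of suberin, among 42966 genes in the deposited table. The study identified the list by homology, and whether the difference between the lines entered it is not stated in the sources used here. It reports all 12 as differing in transcript level and higher in russet skin, by DESeq and not by the fit used here. The 7 genes were selected on values of these same libraries, with their difference between russet and green skin known, so that difference is given below as a description without a test of the members. Of the 7, 2 are named as MYB93/MYB107 homologs (LOC103930480 and LOC103960468), 2 as MYB1 homologs (LOC103931258 and LOC103934194) and 3 as MYB41 homologs (LOC103944470, LOC103963302 and LOC103939627). The files give the numbers alone, e.g., 103944470, 103963302 and 103939627 for the MYB41 homologs, and the prefix LOC is that of NCBI locus names. The other 5 homologs of the list are set beside them once.

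The RNA-Seq libraries came from fruit skin of a russet sand pear, ‘Niitaka’ (A1, A2 and A3), and of the green-skinned line ‘Suisho’ that arose from it as a bud mutant (B1, B2 and B3). Both lines were healthy trees in open growth, and the fruit were 80 d after anthesis. Each sample combined the skin of 10 fruits, with 3 samples per line, so the spread between samples is that of pools and not of single fruits. Lines of this kind are multiplied from a mutated shoot, and ‘Suisho’ is the only green line compared, so that what differs between the lines cannot be told apart from what is particular to ‘Suisho’.

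Suberin is a polyester of fatty acids, glycerol and ferulate that is laid down inside the walls of cork cells, and russet skin is a fruit surface where such a cork layer replaces the cuticle-covered epidermis. R2R3-MYB proteins are transcription factors that bind DNA, and some of them switch on the genes that make and export suberin monomers. In Arabidopsis, MYB107 acts in the suberin of the seed coat, and ectopic MYB41 gives suberin-like lamellae. MYB93 of apple is associated with russeting of the fruit skin, and MYB1 of cork oak is expressed in cork.

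The libraries rested on 31381552 (B3) to 42729578 (A2) reads, so that 1 read on a gene of 1000 bp was worth 0.0234 to 0.0319 FPKM. This unit is a level relative to the length of the exons and to the mapped reads of the library. Sequencing was paired-end, and the total of A2 exceeds the read pairs of any library in the study. Single reads, not fragments, were therefore counted. Reads of the same pair are not independent, so the exact intervals and the counting variation given below can be too narrow. The reads of each gene were worked back from its FPKM and length, and all values of the 12 homologs came out whole with the deposited length. Of 30161 genes whose mean reached 0.1 FPKM, limma on log2(FPKM + 0.1) called 2427 higher and 2198 lower in russet skin, and the median log2 difference of these genes was 0.0032. Of the tissue markers planned as a check, only the epidermal wax genes of the ECERIFERUM 1-like type could be matched by name. They come from a pathway list that the study drew up on these libraries, so they are no independent check. All 5 of them were lower in russet skin, and their summed level was 0 to 0.0447 FPKM in the russet and 18.9 to 29.3 FPKM in the green libraries. In bulk skin, fewer cells of a type and less RNA per cell cannot be told apart, and whether the change in these wax genes bears on the levels below was not tested.

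Most of the 7 MYB homologs were of low abundance in green skin, and in russet skin they lay on both sides of the median gene. Their mean level ranged from 0.159 to 10.3 FPKM in russet skin, with a median of 1.49 FPKM, and from 0.0350 to 4.50 FPKM in green skin, with a median of 0.296 FPKM. The median gene with a read had 4.36 FPKM in russet and 4.34 FPKM in green skin. Of the 7 homologs, 4 lay below that median in russet skin and 6 in green skin. In all, 3767 reads in the 3 russet libraries and 964 reads in the 3 green libraries stood behind the 7 genes.

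The direction was the same in all of them, with a higher mean in russet skin. In 6 of the 7 homologs every russet library lay above every green library, where 17.2% of all genes tested did so. Of the 6 homologs that passed the filter on low values, 5 were called higher and 0 lower, where 8.05% of all genes tested were called higher. Because the genes were picked with this contrast known, nothing is read from these counts. The log2 differences of the 7 ranged from 0.98 to 4.55 with a median of 1.98, whereas the 10th and 90th percentiles of all genes tested were -0.86 and 0.92.

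**Figure D1:**
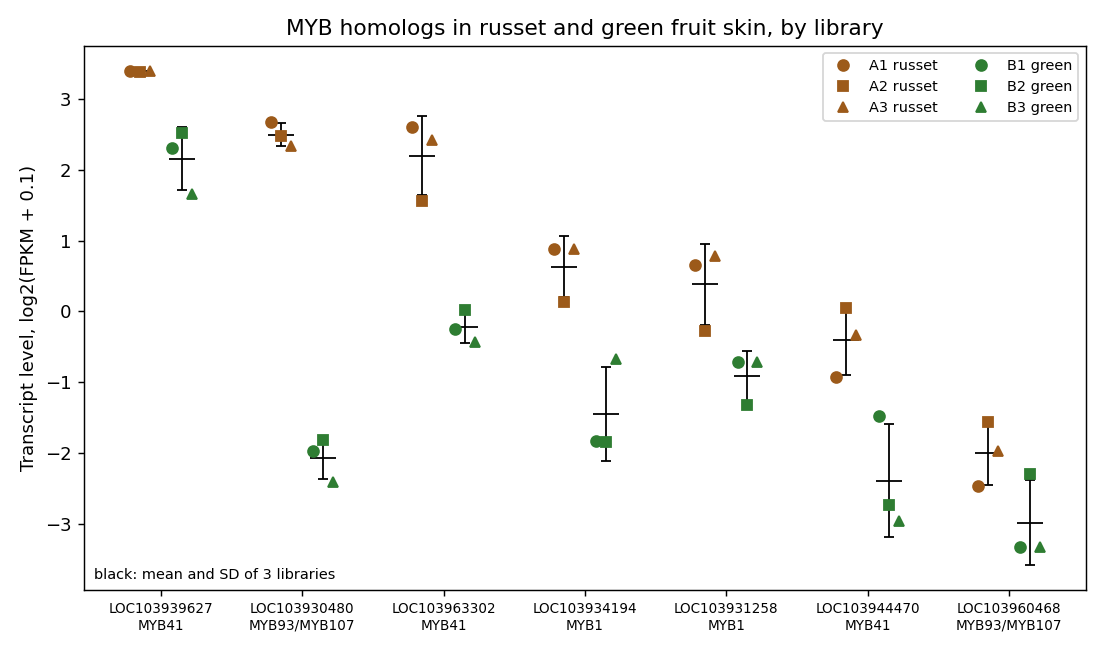
Transcript level of the 7 MYB homologs as log2(FPKM + 0.1) on the vertical axis, with 1 symbol per library (brown, russet; green, green skin) and the mean and SD of 3 libraries in black. The russet symbols stand above the green symbols in 6 genes, and those of LOC103960468, at 0.159 and 0.0350 FPKM on average, overlap.

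The MYB93/MYB107 homolog LOC103930480 showed the widest gap between the lines. It lies on the + strand of scaffold NW_008988514.1 from 312583 to 313998, with 1074 bp of exons. Its level was 6.26, 5.45 and 4.96 FPKM in A1, A2 and A3 and 0.156, 0.184 and 0.0890 FPKM in B1, B2 and B3. The russet values lay close together and the lowest of them was 26.9-fold above the highest green value. In reads, 228, 250 and 223 in russet skin stood against 7, 7 and 3 in green skin. The means of 5.55 ± 0.655 and 0.143 ± 0.0489 FPKM (SD, n = 3) differed 38.8-fold, and the log2 difference was 4.55 (SE 0.20). The ratio of the pooled read rates was 37.7, with a 95% exact interval of 23.4 to 65.1. This interval covers counting error only and takes each read as independent. With so few green reads, counting alone gives a coefficient of variation of 42.4%, above the 34.2% that was seen between the green libraries.

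The other MYB93/MYB107 homolog, LOC103960468, was the rarest of the 7. It lies on the + strand of NW_008988230.1 from 281102 to 282289 and has nearly the same exon length, 1077 bp. Its level was 0.0821, 0.239 and 0.155 FPKM in A1, A2 and A3, from 3, 11 and 7 reads. In green skin it had 4 reads in B2 (0.105 FPKM) and was listed at 0 in B1 and B3. The green library B2 thus lay above the russet library A1, and the lines overlapped. The log2 difference was 0.98 (SE 0.43), and the pooled rate was 4.80-fold higher in russet skin with a 95% exact interval of 1.62 to 19.3. With so few reads, this interval would be clearly wider if reads came in pairs. Its mean of 0.0969 FPKM over the 6 libraries was just under the filter of 0.1 FPKM, so it did not enter the fit across all genes.

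The MYB1 homolog LOC103931258 lies on the - strand of NW_008988542.1 from 44090 to 45466, with 1125 bp of exons. It had 1.47, 0.728 and 1.61 FPKM in A1, A2 and A3 and 0.512, 0.301 and 0.510 FPKM in B1, B2 and B3. A2 was low among the russet libraries and B2 among the green ones, and A2 lay only 1.42-fold above B1. The means were 1.27 ± 0.475 and 0.441 ± 0.121 FPKM (SD, n = 3), a log2 difference of 1.30 (SE 0.39) and a 2.88-fold difference of the means. On 167 russet and 54 green reads, the ratio of the pooled rates was 2.83 (95% exact interval 2.07 to 3.92).

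The second MYB1 homolog, LOC103934194, lies on the + strand of NW_008988674.1 from 232615 to 234437 and is longer, with 1574 bp of exons. It had 1.74, 0.996 and 1.75 FPKM in the russet libraries and 0.183, 0.180 and 0.526 FPKM in the green ones. As in LOC103931258, A2 held the lowest russet value, but the green library that stood out was B3, which held 26 of the 48 green reads. The means of 1.49 ± 0.431 and 0.296 ± 0.199 FPKM (SD, n = 3) gave a log2 difference of 2.08 (SE 0.46). The pooled rate was 5.24-fold higher in russet skin (95% exact interval 3.85 to 7.28) on 275 and 48 reads. The russet levels of both MYB1 homologs overlapped, and so did their green levels. In the fit across all genes, the call of LOC103934194 was lost without A1, A3, B1 or B2, and LOC103931258, not called with all 6 libraries, was called without A2 and with the library number as a block.

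Of the MYB41 homologs, LOC103939627 was the most abundant gene of the 7 in both lines. It lies on the + strand of NW_008989086.1 from 73284 to 75016, with 1433 bp of exons. Its level was 10.4, 10.3 and 10.4 FPKM in A1, A2 and A3 and 4.82, 5.62 and 3.05 FPKM in B1, B2 and B3. The russet libraries differed by less than counting alone would give, with a coefficient of variation of 0.735% against 4.13% from counting. The green libraries varied by 29.3%, where counting gives 6.55%, and B3 was the low one. The means were 10.3 ± 0.0760 and 4.50 ± 1.32 FPKM (SD, n = 3), and this gene had the smallest fold of the means of the 7, at 2.30. Its log2 difference was 1.23 (SE 0.26), and the ratio of the pooled rates was 2.26 with the narrowest interval, 2.07 to 2.47, on 1756 and 710 reads.

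The MYB41 homolog LOC103963302 lies on the - strand of NW_008988039.1 from 1854931 to 1856622, with 1385 bp of exons. It had 5.98, 2.86 and 5.26 FPKM in A1, A2 and A3 and 0.745, 0.918 and 0.644 FPKM in B1, B2 and B3. A2 was again the low russet library, still 3.11-fold above B2, the highest green one. The means of 4.70 ± 1.64 and 0.769 ± 0.139 FPKM (SD, n = 3) differed 6.11-fold, a log2 difference of 2.41 (SE 0.35). The pooled rate ratio was 5.96 (95% exact interval 4.89 to 7.31) on 755 and 116 reads. The gene lies inside the span of LOC108868463 on the same strand, from 1851047 to 1870353. That gene was listed at 0 in all 6 libraries. Whether the exons of both genes overlap, and whether any reads were shared between them, was not tested.

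The third MYB41 homolog, LOC103944470, lies on the + strand of NW_008988065.1 from 108492 to 109831, with 1104 bp of exons. It had 0.427, 0.933 and 0.692 FPKM in A1, A2 and A3 and 0.261, 0.0512 and 0.0289 FPKM in B1, B2 and B3. Here A2 was the highest russet library and A1 the lowest, and B1 held 12 of the 15 green reads. The lines did not overlap, but A1 lay only 1.64-fold above B1. The means were 0.684 ± 0.253 and 0.114 ± 0.128 FPKM (SD, n = 3), with a log2 difference of 1.98 (SE 0.54) and a pooled rate ratio of 5.61 (95% exact interval 3.23 to 10.4). Its call in the fit across all genes was lost with a pseudocount of 0.01, with limma voom on the reads, with the library number as a block, and without A1, A2, A3, B2 or B3.

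**Figure D2:**
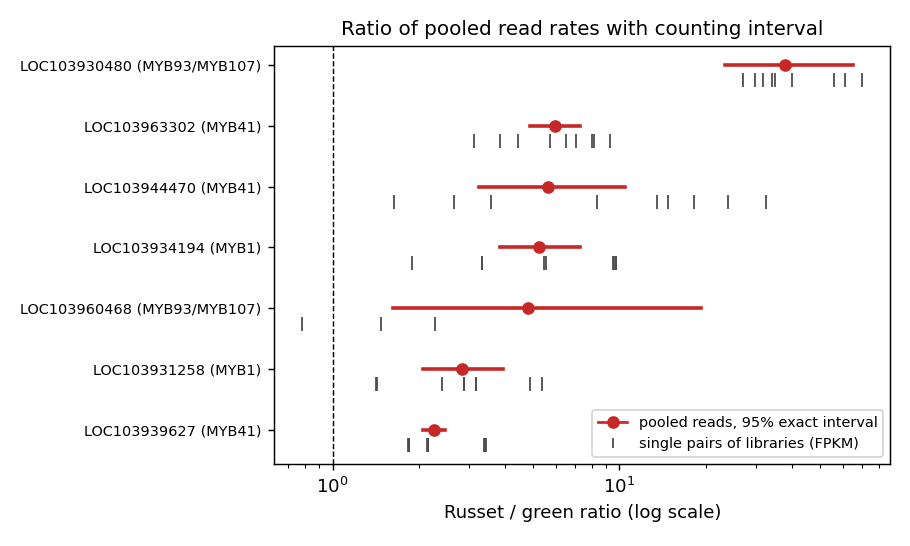
Ratio of russet to green on a logarithmic horizontal axis for each MYB homolog, with the ratio of pooled read rates (point), its 95% exact counting interval (line) and the ratios of single pairs of libraries (ticks; pairs with a green value of 0 are not drawn). The interval of LOC103930480, 23.4 to 65.1, does not overlap that of any other of the 7, and that of LOC103939627, 2.07 to 2.47, is the narrowest. All intervals take each read as independent and can be too narrow. That of LOC103960468 reaches 19.3 on 21 and 4 reads, so its separation from LOC103930480 may not hold.

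The order of the levels differed between the lines. In russet skin LOC103939627 stood highest, followed by LOC103930480 and LOC103963302, whose libraries overlapped. The MYB1 homologs LOC103934194 and LOC103931258 came next with overlapping values, then LOC103944470, which overlapped with LOC103931258, and last LOC103960468, all of whose values were below those of the others. In green skin LOC103939627 was again highest and LOC103963302 was second, each without overlap with the next gene. Below them, LOC103931258 and LOC103934194 overlapped, LOC103934194 also overlapped with LOC103930480 and LOC103944470, and LOC103930480, LOC103944470 and LOC103960468 could not be separated beyond their spread. Thus LOC103930480 was second in russet skin and the fifth in green skin.

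Summed over the 7 homologs, the level was 24.2 ± 2.49 FPKM (SD, n = 3) in the russet libraries and 6.29 ± 1.30 FPKM in the green ones. The sum lay between 21.5 and 26.3 FPKM in the former and between 4.84 and 7.36 FPKM in the latter. Without LOC103939627, the most abundant gene, it was 13.9 ± 2.43 and 1.80 ± 0.0585 FPKM (SD, n = 3). The makeup of the sum shifted with the line. The MYB41 homolog LOC103939627 made up 42.7% of it in russet and 71.4% in green skin, and LOC103930480 made up 23.0% and 2.27%.

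The other 5 homologs of the list lay further apart between the lines, and none of them overlapped. The MYB93/MYB107 homologs LOC103939715 and LOC103960041 had 7.46 ± 1.66 and 3.72 ± 0.717 FPKM (SD, n = 3) in russet skin against 0.414 ± 0.0978 and 0.160 ± 0.141 FPKM in green skin. The MYB1 homologs LOC103951652 and LOC103929632 had 7.19 ± 2.03 and 5.54 ± 1.24 FPKM in russet skin against 0.609 ± 0.0943 and 0.327 ± 0.299 FPKM. The MYB41 homolog LOC103942001 was the least abundant of the 5, at 0.814 ± 0.107 and 0.0636 ± 0.0738 FPKM. Their log2 differences ranged from 2.56 to 3.99 with a median of 3.87. Of the 7 genes, only LOC103930480 had a larger one, at 4.55, and the MYB1 homologs described above, at 1.30 and 2.08, lay below the 3.33 and 3.94 of the other MYB1 homologs. The values of all 12 were known when the genes were picked, so they are set side by side without a test.

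**Figure D3:**
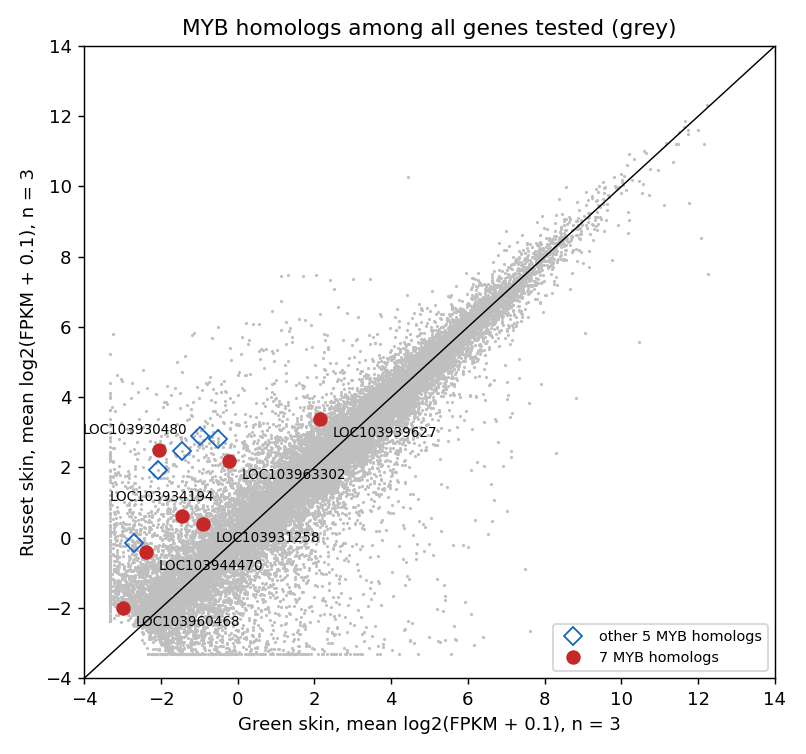
Mean log2(FPKM + 0.1) of 3 libraries in green skin (horizontal) and russet skin (vertical) for all 30161 genes tested (grey), the 7 MYB homologs (red points, labelled; LOC103960468 lies below the filter for the grey genes) and the other 5 homologs of the list (blue diamonds). All 12 lie above the line of equal level, and LOC103930480 lies furthest from it.

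Over the 6 libraries, all 21 pairs of the 7 homologs correlated positively on the log2 scale, with a median Pearson r of 0.83. The highest was 0.97 between LOC103930480 and LOC103963302, and the lowest was 0.37 between LOC103960468 and LOC103931258. In 6 of the 21 pairs r was above 0.9. These values describe 6 libraries that fall into separate lines, so the difference between the lines carries most of them, and no p was computed.

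After the mean of each line was subtracted, 11 of the 21 pairs stayed positive, 10 were negative, and the median r was 0.06. The homologs of 1 type did not all move together within the lines. The MYB1 pair, LOC103931258 and LOC103934194, kept an r of 0.68, and the MYB93/MYB107 pair had 0.31. Among the MYB41 homologs, LOC103963302 and LOC103939627 had 0.37, LOC103944470 and LOC103939627 had 0.34, and LOC103944470 and LOC103963302 had -0.42. Across types, LOC103930480 and LOC103939627 had the highest value, 0.88, and LOC103960468 and LOC103931258 the lowest, -0.81. The 0.88 rests on the green libraries, since LOC103939627 hardly deviated among the russet ones. In green skin LOC103930480 had 7, 7 and 3 reads, and its spread was below that from counting alone. With 4 free deviations behind each r and few reads in several genes, these values are descriptions of these libraries.

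The deviations show which libraries were involved. In A2, LOC103931258, LOC103934194 and LOC103963302 deviated by -0.66, -0.50 and -0.63 from the russet mean on the log2 scale, whereas LOC103960468 and LOC103944470 deviated by 0.44 and 0.45. In B3, LOC103934194 lay 0.77 above the green mean, and LOC103944470 and LOC103939627 deviated by -0.57 and -0.50. The russet values of LOC103939627 deviated by at most 0.01. A2 was the lowest russet library for 4 of the 7 homologs, for 5 of the other 5, and for 41.5% of all genes tested. It was also the lowest for 9 of the 11 genes of cutin, suberine and wax biosynthesis called higher in russet skin (81.8%). A2 was the deepest library.

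**Figure D4:**
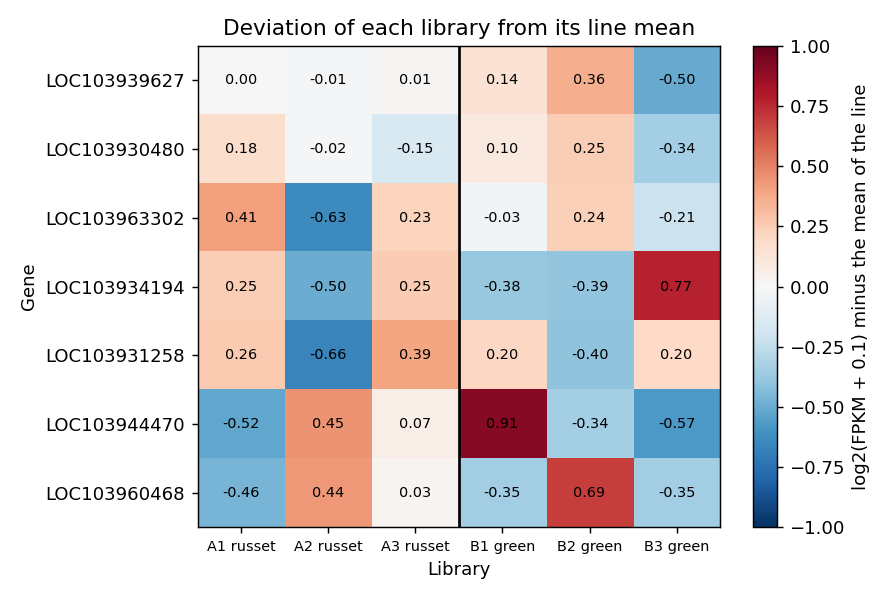
Deviation of each library (columns) from the mean of its line, in log2(FPKM + 0.1), for the 7 MYB homologs (rows), with the values printed and coloured from blue (below) to red (above). In A2 the values run from -0.66 for LOC103931258 to 0.45 for LOC103944470, so that the homologs did not deviate in 1 direction.

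The genes most like LOC103930480 and LOC103931258 over the 6 libraries were sought among those with a mean of 1 FPKM or more. For LOC103930480 these were LOC103935462 with r = 0.9998 (35.3 ± 2.40 FPKM in russet and 8.04 ± 0.744 FPKM in green skin, SD, n = 3), LOC103940580 with 0.9998 and LOC103956873 with 0.9997. The last of these had a similar level, 5.48 ± 0.741 and 0.0471 ± 0.0429 FPKM. Of 23837 genes, 998 (4.19%) exceeded 0.95 with LOC103930480, and 224 exceeded 0.99. After the line means were subtracted, 127 genes (0.533%) exceeded 0.95, and 9 exceeded 0.99. Over the 6 libraries, fewer genes exceeded 0.95 with LOC103931258, 192 of 23838 (0.805%). After the line means were subtracted, more genes did so than with LOC103930480, namely 258 (1.08%). The highest over the 6 libraries were LOC103927839 with r = 0.996, LOC103942118 with 0.995 and LOC103947009 with 0.993. All 3 were more abundant and less different between the lines (45.9 ± 7.96 FPKM in russet and 30.3 ± 2.47 FPKM in green skin for LOC103942118, SD, n = 3). These genes are not named in the tables used here.

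The genes next to the homologs on their scaffolds were not part of the selection. Up to 2 genes on each side gave 23 neighbours, of which 20 passed the filter on low values. Of these 20, 1 was higher and 1 was lower in russet skin (limma, adjusted p under 0.05), where 8.05% of all genes tested were called higher and 7.29% lower. The median log2 difference of the neighbours was 0.11. The 1.98 of the 7 homologs is not set against it, since those genes were picked with their difference known. The genes before LOC103930480, which is the last of 20 genes on its scaffold, had log2 fold changes of 0.10 and 0.13 and were not called.

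The neighbour called higher was LOC103931259, 31876 bp from the MYB1 homolog LOC103931258, itself the first gene of its scaffold. It had 0.424 ± 0.0873 FPKM in russet and 0.0924 ± 0.0571 FPKM in green skin (SD, n = 3), from 77 and 16 reads, i.e., 1.47 on the log2 scale (SE 0.35, limma adjusted p = 0.0321). This call was lost with the library number as a block (adjusted p = 0.0551) and without A1, A2, A3, B2 or B3, with adjusted p up to 0.105. The neighbour called lower was LOC103960445, 10183 bp before LOC103960468. It had 1.69 ± 1.38 FPKM in russet and 13.5 ± 1.15 FPKM in green skin (SD, n = 3), i.e., -3.26 on the log2 scale (SE 0.56, limma adjusted p = 0.00877) that was called under all 15 alternatives. The gene LOC103939633, only 2175 bp before LOC103939627, had -1.76 (SE 0.49, adjusted p = 0.0561, limma) and was called in 3 of the 14 alternatives that tested it, 1 of which was the block. The other 17 neighbours tested had log2 fold changes of -0.51 to 0.49.

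**Figure D5:**
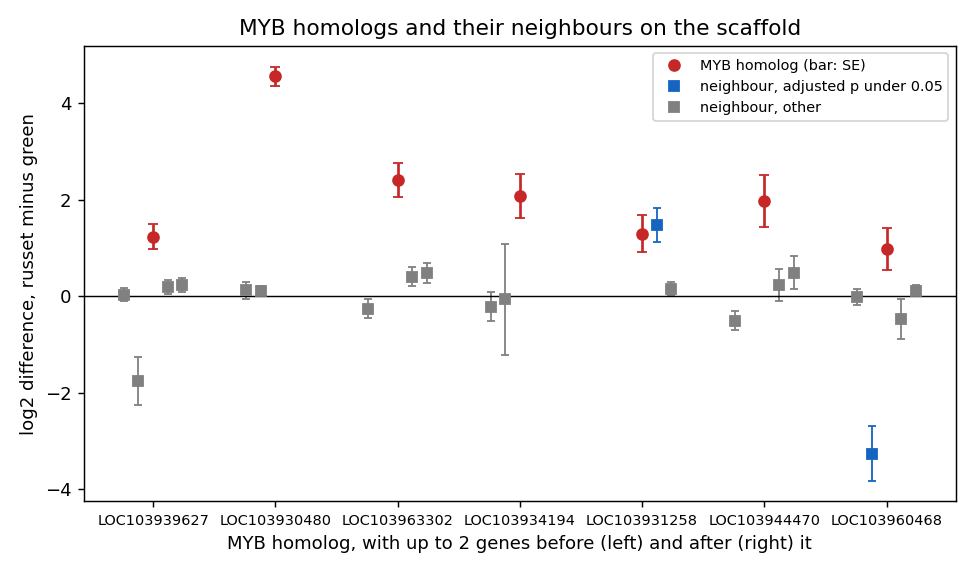
Log2 difference, russet minus green, with SE, for each MYB homolog (red) and for up to 2 genes before and after it on the scaffold (squares; blue, adjusted p under 0.05 with limma). Most squares lie near 0, apart from LOC103960445 at -3.26, LOC103939633 at -1.76 and LOC103931259 at 1.47.

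Genes of suberin, cutin and wax synthesis, among which suberin MYB factors have targets in other plants, were examined as groups. In the pathway of cutin, suberine and wax biosynthesis, a list that the study chose on these libraries and that is no independent evidence, 11 of 21 genes passed the test upwards in russet skin and 9 downwards (limma, adjusted p under 0.05), beside 8.05% and 7.29% of all genes tested. The median log2 fold change was 2.14. Among the 5 genes of the list that are not named in the tables used here, 2 were higher and 2 lower. Omega-hydroxypalmitate O-feruloyl transferase-like genes, whose enzymes add ferulate to suberin monomers, were higher in 5 of 5 cases, from 2.14 for LOC103938506 (SE 0.22, adjusted p = 0.000817, limma) to 5.59 for LOC103964024 (SE 0.30, adjusted p = 5.85e-05, limma). Fatty acyl-CoA reductase-like genes, whose enzymes make fatty alcohols, were higher in 4 of 5 cases, by up to 4.55 for LOC103931004 (SE 0.34, limma adjusted p = 0.000213), and LOC103954216 was the exception at -2.34 (SE 0.29, limma adjusted p = 0.00202). The ECERIFERUM 1-like genes of alkane formation were lower in 5 of 5 cases, with -6.56 for LOC103929753 (SE 0.28, limma adjusted p = 2.72e-05). The least changed of them, LOC103929757, had 83 reads in green skin and 0 in russet skin (limma adjusted p = 0.0186), and its call was lost with a pseudocount of 1 and when any library but B3 was left out (limma adjusted p up to 0.0685). The cytochrome P450 86A22 gene LOC103963865 had -6.15 (SE 0.29, adjusted p = 3.56e-05, limma).

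Some transporters of the ABC G family export lipid monomers across the plasma membrane, and ABCG2, ABCG6 and ABCG20 are known for the suberin barrier of Arabidopsis. The list of 44 genes was taken whether or not they differed. Of these, 33 passed the filter, 13 were higher and 5 were lower in russet skin, beside 8.05% and 7.29% of all genes tested, with a median log2 fold change of 0.66. All 3 ABCG6-like genes were higher, with 2.63, 3.23 and 4.61, and so were both ABCG20-like genes, with 4.83 and 5.65 for LOC103932967 and LOC103933813. The last was the largest increase of the list (SE 0.39, adjusted p = 0.000147, limma), and the ABCG15-like gene LOC103955899 was the largest decrease, at -7.44 (SE 0.32, adjusted p = 2.72e-05, limma). The ABCG6-like and ABCG20-like genes were singled out after their values were seen.

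Low abundance was common, but not general, among 8 other genes described as MYB or myb-related in the part of the annotation used here. They were not chosen by their direction, and they do not stand for all MYB genes of the skin. Their median level over the 6 libraries was 0.264 FPKM, 2 were listed at 0 throughout, and 4 passed the filter. The most abundant of them was LOC103927194, with 108 ± 82.9 FPKM in russet and 113 ± 40.3 FPKM in green skin (SD, n = 3). It was not called, at -0.25 on the log2 scale (SE 0.52, limma adjusted p = 0.816). Of the 4 that passed, 1 was called higher and 0 lower, beside 8.05% and 7.29% of all genes tested. The called gene was LOC103928264, described as MYB86-like and named here after its values were seen. It had 2.08 ± 0.963 FPKM in russet and 0.119 ± 0.0178 FPKM in green skin (SD, n = 3), i.e., 3.23 on the log2 scale (SE 0.36, limma adjusted p = 0.00125).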

How the data were processed

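By the labels and the methods of the study, the authors filtered reads by quality, aligned them with HISAT2 2.0.4 to the Chinese white pear genome, ran Cufflinks 2.1.1 for transcripts, and deposited FPKM per gene and library, with a second table of gene positions and lengths. The assembly version and the treatment of reads shared between related genes are not given in the sources used here, so values of related homologs are uncertain to that extent. The columns name libraries by A (russet) and B (green) only, and which green sample is B1 is not known.

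On log2(FPKM + 0.1), which understates differences of low genes, russet and green libraries were set against each other with limma 3.58.1 (R 4.3.3), using lmFit and a trended eBayes. Tests were two-sided and adjusted by Benjamini-Hochberg over 30161 genes whose mean reached 0.1 FPKM. Python 3.11.15 recovered the reads (tolerance 0.0001). With the deposited lengths 74.5% of the values above 0 were whole, and 8439 genes needed another length. With 3 libraries per line, the smallest two-sided p of an exact permutation test is 0.10, so none was run. Whether samples came from separate trees is not stated, so p-values measure the spread between these samples.

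The members and lists were chosen with earlier results of these data known. Named are all 12 homologs, the 3 most similar genes of LOC103930480 and LOC103931258, and for each family the called genes at either end of its log2 fold changes. The neighbours, LOC103928264, LOC103927194 and the other ABC G genes were named after their values were seen. The pathway genes and ABC G transporters that the study lists replaced the planned families by description. Deviations of libraries with the same column number correlated across genes at 0.195, 0.211 and 0.323, and those with different numbers at -0.235 to 0.0436. Libraries with the same number were thus more alike by this measure, but the study names no pairing. The labels number the green samples otherwise than the columns do, so the block rests on the column numbers alone. Alternatives were other pseudocounts, filters, scalings, limma voom, no trend, the library number as a block and each library left out.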

Additional observations from a re-analysis of the deposited data

How the results depend on the processing

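None of the log2 differences of the 7 MYB homologs changed sign under the alternatives run. With a pseudocount of 1, the log2 difference was 2.52 for LOC103930480, 0.16 for LOC103960468, 0.64 for LOC103931258, 0.94 for LOC103934194, 0.59 for LOC103944470 and 1.65 for LOC103963302. With a pseudocount of 0.01 it was 5.23 for LOC103930480, 2.79 for LOC103960468 and 2.94 for LOC103944470. With limma voom on the recovered reads it was 5.17 for LOC103930480 and 2.83 for LOC103944470. The value of LOC103939627 stayed between 0.98 (without B3) and 1.41 (without B2). For LOC103960468 no value was had from limma voom or from the block, and 4 of the 7 homologs drop out at a mean of at least 1 FPKM.

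Over all genes, 4625 were called. With the library number as a replicate block 6038 were called, and with 1 library left out 3172 (without B2) to 3624 (without B3). The block lost the call of LOC103944470, gave a call to LOC103931258, and lost that of the neighbour LOC103931259 (adjusted p = 0.0551, limma). Of the homologs, 3 to 5 were called with 1 library left out, and LOC103930480, LOC103939627 and LOC103963302 were called under all alternatives. The call of LOC103934194 was lost without A1, A3, B1 or B2, and LOC103931258 was called without A2. The ECERIFERUM 1-like gene LOC103929757 lost its call with a pseudocount of 1 and when any library but B3 was left out (adjusted p up to 0.0685, limma). In the pathway list 16 to 21 genes were called and in the ABC G list 14 to 21. Both low ends came from the filter of at least 1 FPKM, which tested fewer genes. There 16 of 16 pathway genes and 14 of 25 ABC G genes were called, beside 3574 of all 23838 genes tested. The share of genes with r over 0.95 to LOC103930480 fell from 4.19% to 0.533% after the line means were subtracted. That to LOC103931258 went from 0.805% to 1.08%. Few reads stand behind the green values of several homologs, since LOC103960468 had 4 green reads, LOC103944470 had 15 and LOC103930480 had 17.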
